A study of Thlaspi arvense with 10 samples.

Results

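In cultured embryos of pennycress (Thlaspi arvense), an oilseed of the cabbage family, 193 gene models had a mean level at least 4 times lower in line WD3, which overexpresses WRI1 and DGAT1, than in wild type (WT). They were found among 27148 gene models by 3 criteria on CPM, the count of a model per 1000000 counts of its library. Their mean was at least 5 CPM in WT, it was at least 4 times the mean in WD3, and the highest WD3 library lay below the lowest WT library. The 100 models with the largest mean CPM in WT were left out. The levels of these 193 lowered models in WD3 and WT therefore chose them, and are described here without a test.

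Embryos of the cultivar Spring32 were dissected from the pods at about 15 days after flowering and then spent 10 days in liquid culture under continuous light, 15 embryos in 30 mL of medium at 20 °C. The medium held 20% polyethylene glycol (PEG4000), an osmotic agent, besides 120 mM glucose, 35 mM glutamine and 10 mM alanine, and was the same for all libraries. WD3, a single line that carries both WRI1 and DGAT1 overexpression, was compared with WT. Poly(A) RNA was sequenced from 5 libraries of each, with 55525341 to 76983434 counts per library in WD3 and 68756445 to 89432933 in WT. No source used here states the promoters of the transgenes, the number of insertions, or separate plants or flasks behind the replicates. WD3 thus stands for 1 line, and the spread between libraries may be technical.

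WRI1 is a transcription factor of developing seeds that switches on genes of glycolysis and of fatty acid synthesis in the plastid. DGAT1 is the membrane enzyme that joins the last fatty acid to diacylglycerol and so completes triacylglycerol, the storage oil of the embryo. Overexpression of the pair acts at both ends of the route, on the supply of fatty acids and on their assembly into oil. The study set WD3 beside WT to see what this does to lipid metabolism in the embryo.

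The deposited table does not pair its identifiers with gene names, and no annotation was used here, so the roles of the lowered models are not known from these data. All 193 carry a number with the prefix MSTRG, a label that StringTie gives to loci. That holds for 12109 of the 12110 eligible models, those with at least 5 CPM in WT outside the 100 most abundant. WRI1, DGAT1 and the markers of embryo, seed coat and endosperm could likewise not be matched to an identifier, so neither the overexpression nor the tissue was checked. In bulk RNA of whole embryos, fewer cells that express a gene and less of its RNA per cell cannot be told apart.

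The 193 lowered models were 1.59% of the 12110 eligible models. Without the criterion on overlap there would have been 199. In the 6 additional models, which were 4.06-fold to 12.01-fold lower in mean, at least 1 WD3 library was above the lowest WT library. Falls without overlap were common: 2147 eligible models, or 17.7%, had all WD3 libraries below all WT libraries. A fall of at least 2-fold in mean CPM was found in 623 eligible models (5.14%). Of the 100 most abundant models, 3 met the other criteria, and the largest fall in mean among the 100 was 4.99-fold.

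At the limit of the fold, the nearest models inside were 4.02-fold and 4.03-fold lower in WD3, and the nearest models outside were 3.99-fold and 3.98-fold lower without overlap. At the limit of the level, the last lowered models averaged 5.01 and 5.09 CPM in WT. The first ones outside that met the other criteria averaged 4.98 and 4.92 CPM. The values ran on across both limits without a gap.

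**Figure D1:**
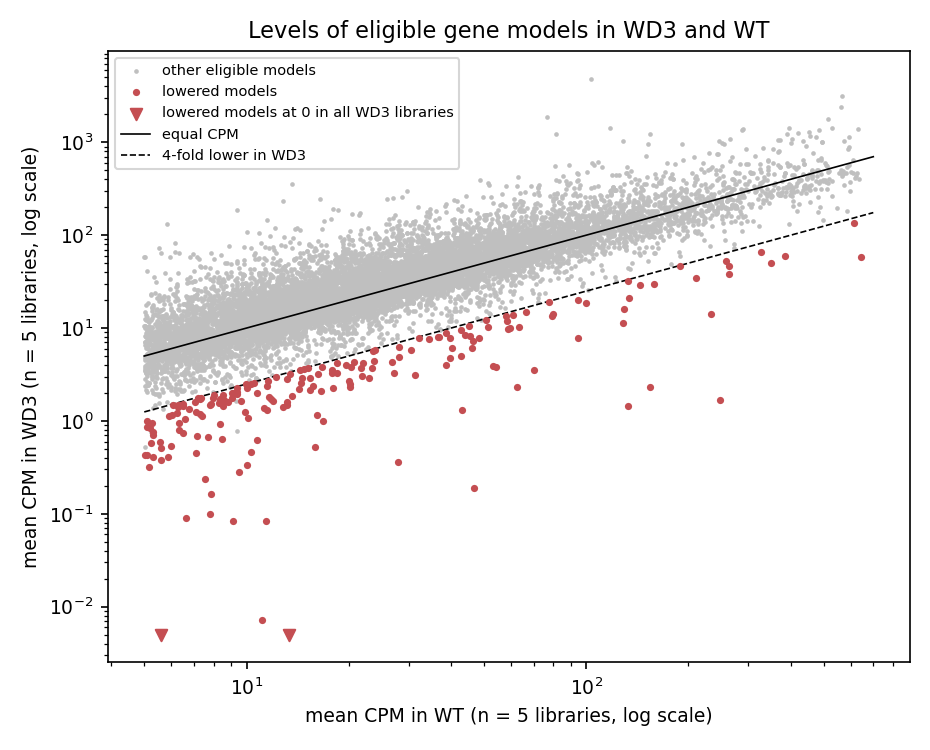
Mean CPM of the 12110 eligible models in WD3 (vertical) against WT (horizontal), each over 5 libraries and on log scales. The 193 lowered models lie under the dashed line of a 4-fold fall. Most lie close to it, and the triangles at the lower edge, placed below the scale, are the 2 models with 0 counts in all WD3 libraries.

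Most of the lowered models kept a measurable level in WD3. The fold ranged upward from 4.02 with a median of 5.91 and an upper quartile of 8.94. The falls were between 4-fold and 8-fold in 132 models (68.4%) and between 8-fold and 16-fold in 36 (18.7%). Falls of at least 16-fold were found in 25, of which 2 had no count at all in WD3. All 5 WD3 libraries counted 182 of the 193 models. In 9 models between 1 and 4 WD3 libraries were at 0.

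The median log2 change of the 193 models in mean CPM was -2.56, beside 0.15 over all eligible models. CPM is a share of a library, so this upward shift of the median eligible model depends on the scaling. With edgeR's TMM factors, which scale libraries on the bulk of the models, the median change was -2.74 for the lowered models and -0.04 over all 17471 models tested. Between lowered models the standard error of the log2 change had a median of 0.20, beside 0.12 over all tested models. edgeR's quasi-likelihood test called all 193 models lower in WD3 at an adjusted p under 0.05, where 33.4% of all tested models were called lower. The rule used this contrast, so nothing is read from that count.

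The lowered models were spread over the whole range of WT levels. CPM is not divided by transcript length, so the ranks by mean WT CPM given below order the models by their counts and not by molecules. Between 5 and 10 CPM in WT there were 69 lowered models, 3.04% of the eligible models at that level. Between 10 and 50 CPM there were 85 (1.23%), between 50 and 100 CPM 19 (1.12%), and from 100 CPM upward 20 (1.61%). The median fold in these ranges was 5.83, 6.13, 5.64 and 6.42. Falls of at least 16-fold made up 8, 11, 2 and 4 of the models.

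Together the lowered models held a small part of the counts. Their summed level was 1340 ± 59.4 CPM in WD3 and 8790 ± 784 CPM in WT (SD, n = 5 each), 6.56-fold lower in WD3. As shares of all counts these sums are 0.134% ± 0.00594 in WD3 and 0.879% ± 0.0784 in WT, a difference of -0.745 percentage points. The sums of the libraries lay between 1276 and 1419 CPM in WD3 and between 7861 and 9719 CPM in WT. That these do not overlap follows from the rule, which allows no overlap in any single model. The 10 models with the largest WT means made up 39.0% of the summed level in WD3 and 40.8% in WT.

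**Figure D2:**
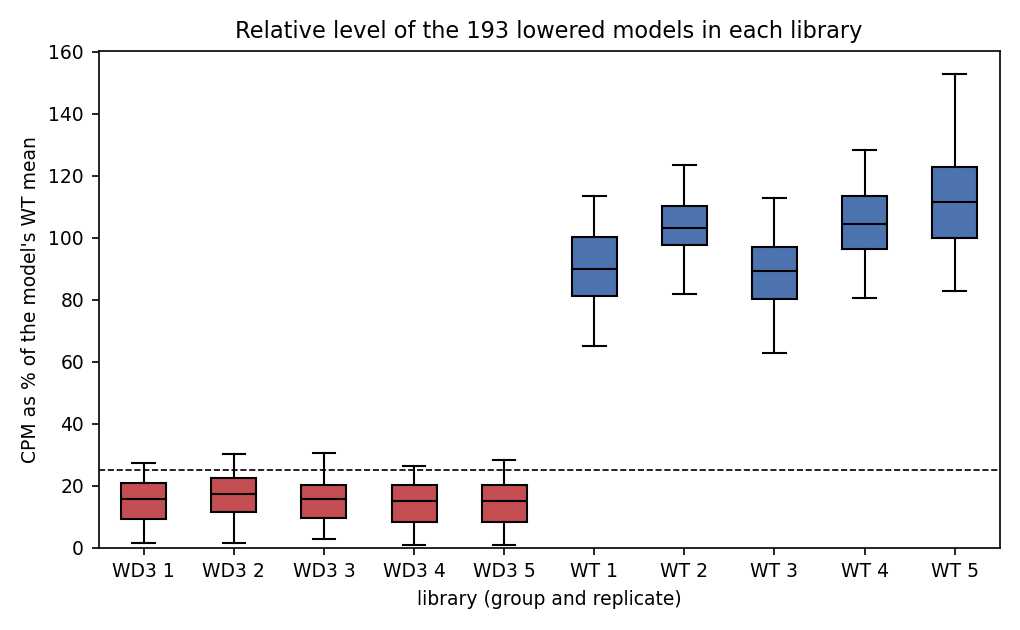
Level of the 193 lowered models in each library, as a percentage of each model's own mean CPM in WT. Boxes span the quartiles of the models with the median as a line, whiskers reach the 5th and 95th percentiles, and the dashed line marks 25%. The medians lie between 15.1% and 17.3% in the WD3 libraries and between 89.2% and 111% in the WT libraries.

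The highest WT level among the lowered models was that of MSTRG.5781. It had 92.8, 21.3, 56.3, 67.1 and 53.7 CPM in WD3 replicates 1 to 5, against 474, 572, 627, 761 and 778 CPM in WT replicates 1 to 5. Every WT library was at least 5.11 times as high as the highest WD3 library, and WD3 replicate 2 stood lowest. The means were 58.3 ± 25.8 CPM in WD3 and 643 ± 128 CPM in WT (SD, n = 5 each), 11.03-fold lower in WD3, with an edgeR log2 change of -3.64 (SE 0.33). Its WT mean fell just short of that of the 100 most abundant models, which began at 647 CPM.

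The models of rank 2 to 8 by WT level fell by 4.53-fold to 7.02-fold and stayed well counted in WD3. Rank 2 averaged 135 ± 25.5 CPM in WD3 and 614 ± 42.8 CPM in WT (SD, n = 5 each), the highest level that any of the 193 models kept in WD3. At rank 4 the means were 49.9 ± 17.3 CPM in WD3 and 350 ± 20.1 CPM in WT. Its WD3 libraries ranged from 30.9 to 74.3 CPM, a wider relative spread than the 326 to 374 CPM of its WT libraries. Rank 6 was more even in WD3, with 41.9 to 52.9 CPM there and 208 to 304 CPM in WT.

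The next models in this order had larger falls. At rank 9 there were 1.99, 1.08, 1.26, 1.57 and 2.51 CPM in WD3 replicates 1 to 5, against 281, 300, 245, 195 and 217 CPM in WT replicates 1 to 5. Its lowest WT library was 77.8 times its highest WD3 library. The mean in WD3 was 0.678% of that in WT, a 147-fold fall, and still rested on 83 to 140 counts per WD3 library. Rank 10 averaged 14.2 ± 3.49 CPM in WD3 and 234 ± 18.03 CPM in WT (SD, n = 5 each), 16.4-fold lower.

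**Figure D3:**
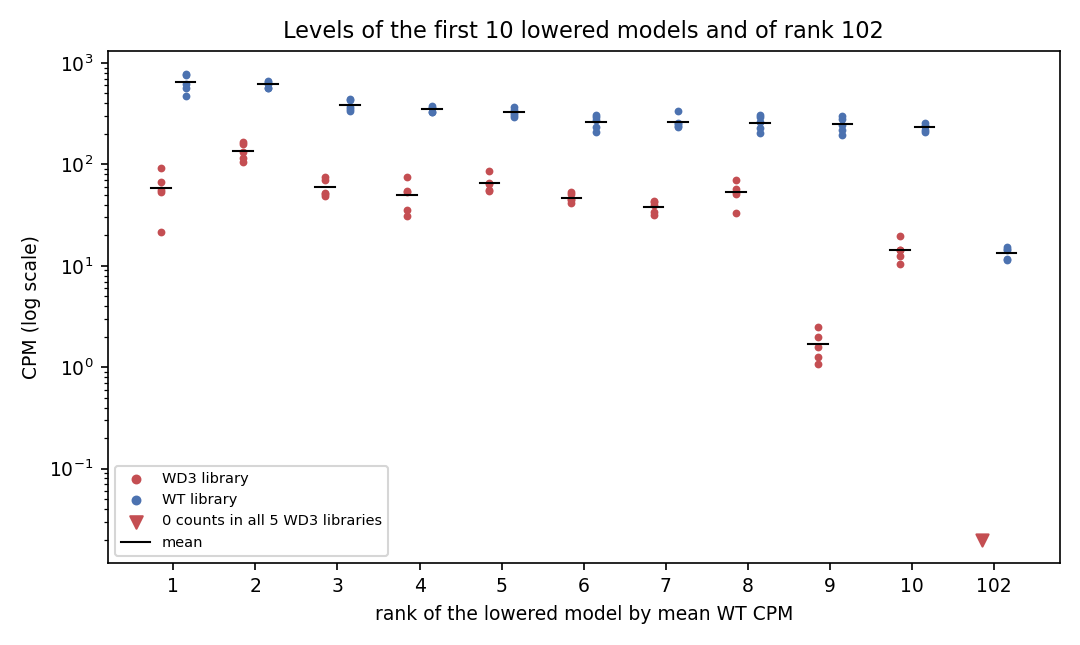
CPM (log scale) of the 10 lowered models with the largest WT means and of MSTRG.12245, which has rank 102. Points are libraries, with WD3 left of WT, bars are means of 5 libraries, and the triangle stands for 0 counts in all 5 WD3 libraries. The WD3 points of rank 9 lie between 1.08 and 2.51 CPM, below those of its neighbours in rank.

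Further down the order, other models also had large falls. Rank 14 averaged 2.31 ± 0.744 CPM in WD3 and 154 ± 22.1 CPM in WT (SD, n = 5 each), 66.7-fold lower. At rank 41 there were 0.0909 to 0.273 CPM in the WD3 libraries, or 7 to 17 counts, against 41.8 to 51.2 CPM in the WT libraries, or 3255 to 3734 counts. It fell 247-fold and was even in WT, with a coefficient of variation (SD as a percentage of the mean) of 7.37%. Rank 63 fell 77.1-fold, with means of 0.363 ± 0.158 CPM in WD3 and 28.01 ± 6.17 CPM in WT.

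MSTRG.12245 had the largest WT level among the models with no count in WD3. It was at 0 in all 5 WD3 libraries, against 11.7, 14.2, 11.3, 14.5 and 15.2 CPM in WT replicates 1 to 5, which are 778 to 1301 counts. Set against a floor of 3 counts in each WD3 library, its WT mean of 13.4 ± 1.77 CPM (SD, n = 5) was at least 286-fold higher. Low counts in this table pile up at multiples of 4, with 26.9% to 37.7% of the values from 1 to 12 in each library, where an even spread gives 25%. If a fragment is worth several counts, which was not tested, a floor of 12 counts gives at least 71.4-fold. The other model at 0 in all WD3 libraries, of rank 181, stood at 4.09 to 6.98 CPM in WT, at least 119-fold higher than the floor of 3 counts and at least 29.8-fold higher than that of 12. These floors cover counting error only. Next came rank 116, with 2 counts in WD3 replicate 5 and none in the other WD3 libraries, against 690 to 1212 counts in the WT libraries.

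In most lowered models the groups lay well apart. The lowest WT library was a median of 3.45 times the highest WD3 library. That ratio was at least 2 in 179 of the 193 models and at least 4 in 75. The smallest gap, 1.13 times, belonged to rank 95. Its highest WD3 library stood at 4.40 CPM and its lowest WT library at 4.96 CPM.

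The lowered models had larger coefficients of variation than the other 11917 eligible models. Their median coefficient of variation was 27.7% in WD3 over the 191 models with counts there, and 16.1% in WT. Over the other eligible models it was 8.19% in WD3 and 12.07% in WT. The rule chose the lowered models for low WD3 levels, and these were not matched to the levels of the other models. The WD3 values are therefore not comparable between the sets, and the part of counting error in them was not tested. In WT the lowered models had the larger median in each range of level, for example 13.6% against 9.76% from 100 CPM upward and 15.7% against 11.95% between 10 and 50 CPM. The rule requires that the groups do not overlap, which favours a low spread. It also requires a high WT mean, which a few high WT libraries can lift, and so can admit models of high WT spread. No test was made.

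In 5 lowered models the WT coefficient of variation was above 50%. The largest was that of rank 133. It had 0, 0.286, 0.131, 0 and 0 CPM in WD3 replicates 1 to 5, against 0.553, 15.5, 0.436, 0.626 and 28.4 CPM in WT replicates 1 to 5. WT replicates 2 and 5 were high and the other 3 WT libraries were close to the WD3 libraries, so its fold of 109 rests on 2 libraries. The fold was 277 without WD3 replicate 2. Without WT replicate 5 it was 51.2 and the WT mean fell under 5 CPM. Rank 28 varied in another pattern, with 10.2 to 21.4 CPM in WD3 and with 84.7, 43.5, 130, 42.5 and 32.3 CPM in WT replicates 1 to 5. It was highest in WT replicates 1 and 3.

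WT replicates 1 and 3 stood apart from WT replicates 2, 4 and 5 across the transcriptome, and the lowered models followed this in part. Their summed level was 7861 and 8133 CPM in WT replicates 1 and 3, and 8916 to 9719 CPM in WT replicates 2, 4 and 5. In 90 models (46.6%) WT replicates 1 and 3 both lay below the other 3 WT libraries, and in 13 (6.74%) both lay above them. Among the other eligible models these shares were 49.0% and 17.8%. WT replicate 5 was the highest WT library in 91 of the lowered models (47.2%), beside 35.8% of the other eligible models. WT replicate 3 was the lowest in 92 (47.7%), beside 40.2%. The cause of the split among the WT libraries was not tested. With WT replicates 1 and 3 left out, 218 models met the rule, 186 of them among the 193. With WT replicates 2, 4 and 5 left out, 163 met it, 147 of them among the 193.

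Within the line, WD3 replicate 2 was the highest WD3 library in 61 lowered models (31.6%), beside 14.8% of the other eligible models. WD3 replicate 4 was the highest in 19 (9.84%), beside 17.4%. WD3 replicate 2 was also the lowest WD3 library in 40 lowered models (20.7%), beside 21.4% of the other eligible models. The median level of a lowered model relative to its WD3 mean was 106% in WD3 replicate 2 and 91.1% in WD3 replicate 4. For the other eligible models these medians were 98.8% and 101%.

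**Figure D4:**
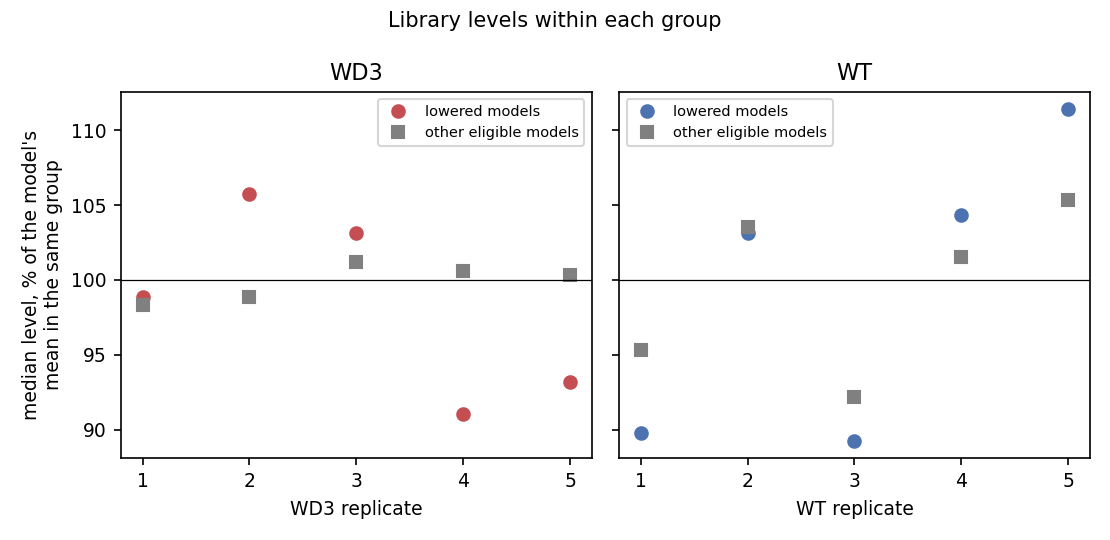
Median level of the lowered models (circles) and of the other eligible models (squares) in each library, as a percentage of each model's mean in the same group, for WD3 at left and WT at right. Models at 0 in all WD3 libraries are left out at left. Among the WT libraries the lowered models range from 89.2% in replicate 3 to 111% in replicate 5, and the other models from 92.2% to 105%.

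Libraries left out when the rule is applied give a reading of the fall in values that this application did not use. The rule and its limits were set with earlier results of these data known, and all WD3 libraries come from the same line. The reading is therefore not an independent check. The rule was applied 5 times to 8 libraries, leaving out the WD3 and the WT library of the same replicate number, and the 2 libraries left out were then compared. These choices held 175 to 207 models, of which 169 to 186 were among the 193. In the libraries left out, the chosen models had a median fold of 5.78, 5.87, 5.05, 6.85 and 6.99 for replicates 1 to 5. On the libraries that chose them, the medians were 5.93 to 6.07. A level lower in the WD3 library left out than in the WT library left out was found for 193 of 194, 193 of 194, 201 of 207, 179 of 179 and 175 of 175 chosen models. For the other eligible models that share was between 31.4% and 44.2%.

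A fall of 4-fold or more in the libraries left out was found for 65.2% to 89.9% of the chosen models. The lowest share belonged to replicate 3 and the highest to replicate 4. In replicate 3, 6 of the 207 chosen models were higher in the WD3 library than in the WT library left out, down to a WT level 0.0252 times that in WD3. No source used here states that the same replicate number pairs a WD3 with a WT library. Each reading is 1 library against 1, and the 5 choices share most of their libraries, so no test was made.

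**Figure D5:**
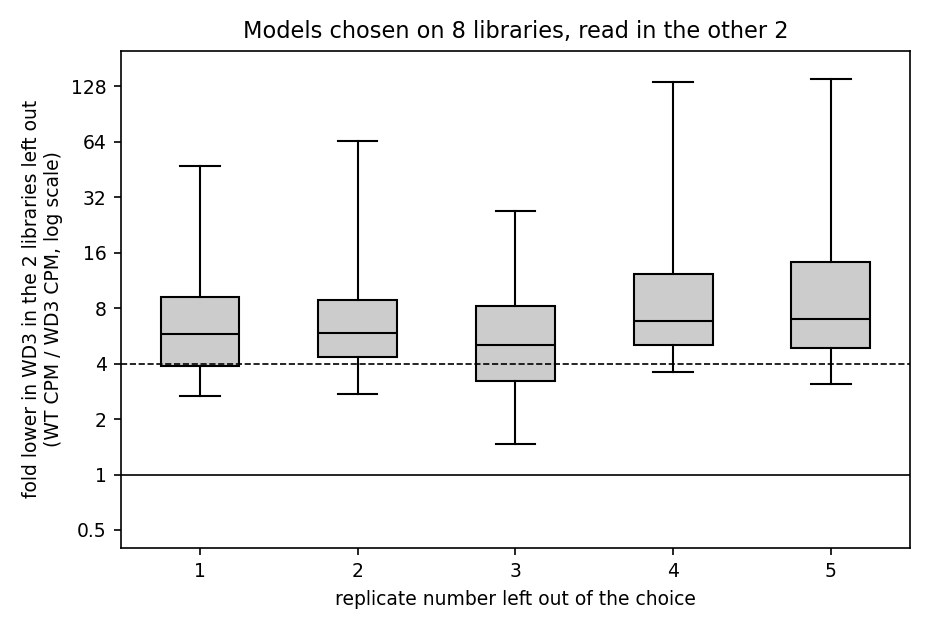
Fold by which models chosen on 8 libraries were lower in WD3 in the 2 libraries left out (WT CPM divided by WD3 CPM, log scale), for each replicate number left out. Boxes span the quartiles with the median as a line, whiskers reach the 5th and 95th percentiles, the dashed line marks 4-fold and the solid line equal levels. The medians lie between 5.05 and 6.99, all above the dashed line.

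Some of the lowered models carry consecutive MSTRG numbers. There were 7 pairs and 1 set of 3, which hold 17 of the 193 models (8.81%). The same share was not computed for other eligible models, so it is not read as large or small. MSTRG.5781 and the model of rank 17 form such a pair. The model of rank 17 had 2.16, 0.143, 0.841, 2.48 and 1.52 CPM in WD3 replicates 1 to 5, against 102, 96.8, 130, 165 and 170 CPM in WT replicates 1 to 5. Both models were lowest in WD3 replicate 2 among the WD3 libraries, as were 20.7% of the lowered models. Both were highest in WT replicate 5 among the WT libraries, as were 47.2%. The highest WD3 library was replicate 1 for MSTRG.5781 and replicate 4 for rank 17, and the lowest WT library was replicate 1 and replicate 2. The fall was 11.03-fold in MSTRG.5781 and 92.7-fold in the model of rank 17. In the set of 3, of ranks 76, 103 and 52, the falls were 8.05-fold, 8.20-fold and 8.24-fold at WT means of 20.1, 13.2 and 39.7 CPM. MSTRG.12245 is followed by the model of rank 135, which kept 1.78 CPM in WD3, against 9.05 CPM in WT.

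Whether such models lie next to each other in the genome, share reads or are parts of 1 transcript was not tested, because the table holds no coordinates. The models numbered directly before or after a lowered model were also examined. Of 354 such models that were tested and are not among the 193, 125 were called lower in WD3 by edgeR and 106 higher. These are 35.3% and 29.9%, where 34.5% and 31.6% of all 15751 tested MSTRG models, and 33.4% and 29.6% of all tested models, were called lower and higher. At least 2-fold, 42 of them (11.9%) were called lower, beside 8.95% of the MSTRG models and 10.2% of all tested models. The median log2 change of the 354 models was -0.07, beside -0.02 over the MSTRG models and -0.04 over all tested models. Unlike the 354, both reference sets hold the 193 lowered models, all of them called lower. The shares are thus not of like sets. No test of these differences was made.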

How the data were processed

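Poly(A) RNA-seq of 10 libraries, 5 of WD3 and 5 of WT, was used. The authors deposited a table of raw counts, 1 row to a model and unscaled. An aligner, HISAT2 2.2.1, and an assembler, StringTie 2.2.1, are named in the submitters' processing notes. Settings, build, annotation, counting and strandedness were not given in the sources used here. No strand marking is mentioned in the labels' protocols, so antisense or overlapping models may hold each other's reads. Groups and replicate numbers come from the sample titles, and columns were matched through the library names. No sample column was left unused.

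CPM was computed from the total of each column, and the rule of the opening was applied to it. Changes between the groups were fitted over 17471 models with edgeR 4.0.16 (filterByExpr, TMM, quasi-likelihood F-test, R 4.3.3) with the group alone in the design and p-values adjusted after Benjamini and Hochberg, at 0.05. Standard errors were taken from the log2 change and the F statistic. Both steps were tested on simulated data. With no table of names, the rule for named models prints 2 identifiers, the largest WT mean overall and among the models at 0 in WD3. The first 10 models by WT mean and the models at the limits are described by rank. Other ranks were chosen after their values were seen. The models, the rule and the alternatives were chosen with earlier results of these data known, and the gene lists could not be matched. Same-numbered libraries did not deviate together. Alternatives used other scalings, thresholds, filters, DESeq2 1.42.0, limma-voom (limma 3.58.1), a replicate block, counts divided by 4 and libraries left out. Depth was 55525341 to 89432933 counts per library.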

Additional observations from a re-analysis of the deposited data

Results flagged for a closer look

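In 23 sets of 5 libraries (the first 10 lowered models in each group, MSTRG.12245 in WT, and the summed level in each group), 1 held a library far from the other 4, where chance gives about 1 in 20. The model of rank 7 by WT level stood at 339 CPM in WT replicate 4, against 231 to 257 CPM in the other WT libraries. Its WD3 libraries lay between 31.6 and 43.3 CPM.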

How the results depend on the processing

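The set of lowered models followed its limits. An 8-fold limit left 61 models and a WT minimum of 10 CPM left 124. TMM, RLE and upper-quartile factors gave 234, 227 and 279, each holding all 193. Leaving out single libraries gave 178 to 199 models, and 158 of the 193 met the rule each time. The fold moved by over 1.5 times in 6 models. Without WD3 replicate 2 it was 11.7, 12.5, 277 and 6.71 for those of rank 108, 115, 133 and 161, against 7.34, 8.18, 109 and 4.44 with all libraries. WT replicate 5 also moved rank 133, to 51.2. Without WD3 replicate 3 the fold of rank 150 was 266, against 78.2, and without WD3 replicate 5 rank 116 had no count in WD3. The median log2 change of the 193 models was -2.74 with TMM, -2.71 with RLE and -2.88 with upper-quartile factors. It was -2.66 without WT replicates 1 and 3, -2.46 without WT replicates 2, 4 and 5, and -2.62 to -2.55 without single libraries. With the 100 most abundant models taken out of the totals, the lowered models held 0.183% of the counts in WD3 and 1.54% in WT. As shares of all counts they held 0.134% in WD3 and 0.879% in WT. Without single libraries those shares of all counts were 0.132% to 0.136% in WD3 and 0.856% to 0.902% in WT. Lower calls made up 53.0% of all edgeR calls with TMM, 37.3% with library totals alone and 63.1% with upper-quartile factors. Leaving out single libraries called 5113 to 5746 models lower, against 5839 with all. With the replicate number as a block, 5349 were called lower, all 193 among them. No source used here states a pairing by number. Same-numbered libraries correlated between -0.16 and 0.02 in their deviations, and no library of either group correlated best with its own number. Such correlations cannot show whether same-numbered libraries were handled together. Over all 21 other fits, 192 or 193 of the lowered models were called lower, where 3988 to 7140 tested models were called lower in all. The rule used this contrast, so nothing is read from the calls among the lowered models. Precision in WD3 is limited in 9 models that averaged under 12 counts there.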

Other observations

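The same rule with the groups exchanged found more models. With 5 CPM as the lowest WD3 mean, the 100 models with the largest WD3 means left out, and all WD3 libraries above all WT libraries, 515 of 12373 models (4.16%) were at least 4-fold higher in WD3, beside 193 of 12110 (1.59%) at least 4-fold lower. These counts use library totals, under which the median log2 change of the eligible models was 0.15, against -0.03 with TMM factors. With TMM, RLE and upper-quartile factors the rule for lower models gave 234, 227 and 279. The exchanged rule was not run with those factors, so how far the contrast depends on the scaling is not known.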
